A study of Saccharomyces cerevisiae with 8 samples.

Results

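DGY1726 and DGY1735 are evolved lineages of Saccharomyces cerevisiae that carry different copy number variants (CNVs) around GAP1, the gene of the general amino acid permease on chromosome XI. Their RNA was compared with 4 of the 8 RNA-seq libraries of the series, those whose titles name DGY1726 (2 libraries) or DGY1735 (2 libraries). Both lineages derive from FY4, the S288C background, and carry a GFP and KanMX reporter cassette at GAP1, were selected in glutamine-limited chemostats for the same span, and were grown from single colonies, so that each strain is 1 clone. For RNA, replicate cultures of each strain were held at 30 °C in medium with 800 µM glutamine at a doubling time of 5.8 h for 24 h of continuous mode, and cycloheximide was added before harvest. The ancestor was not analysed here, and every ratio below is DGY1726 over DGY1735. The totals of protein-coding counts were between 9125509 and 12554145, and 5492 of 6600 protein-coding genes passed the minimum of a mean of 100 counts per library. In all 4 libraries the summed markers of a cells stood above those of alpha cells. The 6 a-specific genes summed to 312 to 457 CPM (counts scaled to the depth of the library), against 50.1 to 70.2 CPM for 4 alpha-specific genes. The a sum was carried by STE2 (106 to 158 CPM) and STE6 (172 to 247 CPM). MFA1, MFA2, BAR1 and AGA2 were each below the alpha gene SAG1 (35.1 to 44.0 CPM) in every library. SAG1 and STE3 carried the alpha sum, with the alpha pheromone gene MF(ALPHA)1 at 0.329 to 3.99 CPM.

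A CNV changes the number of templates of every gene it spans, and RNA of these genes commonly moves with the number of copies. In the account of the study, DGY1726 (Trans) holds a tandem duplication from TOF2 to GAP1, made by a transposon, inside a translocated piece of the right arm of chromosome XI that replaced the end of chromosome VIII to the right of FLO5. It also holds an amplified stretch of chromosome V from SAK1 to YER137C. DGY1735 (ODIRA_A) holds a triplication bounded by ALY1 and SIR1, of the kind that arises from an origin of replication and inverted repeats. The chromosomes were therefore split at these genes: TOF2 to VPS51 (amplified in DGY1726 alone), NTR2 to GAP1 (amplified in both, within the duplication of DGY1726), the stretch downstream of GAP1 to SKG1 (amplified in both, outside that duplication), FLO10 to the right end of chromosome XI (amplified in DGY1726 alone), and the stretch between SAK1 and YER137C on chromosome V (amplified in DGY1726 alone). The breakpoint genes ALY1, SIR1, SAK1 and YER137C were kept apart. The study places a likely breakpoint inside each of them, describes their RNA as disrupted, and left them out of its own analysis.

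In all, 97 of the 5492 tested genes differed between the strains (1.77%; edgeR quasi-likelihood F-test, BH adjusted p under 0.05). Of these, 61 were higher (1.11%) and 36 lower (0.655%) in DGY1726, and 31 and 8 of them by at least 2-fold. The segments of chromosomes V and XI held 48 of the calls among only 103 tested genes (46.6%). Outside them 49 of 5389 genes were called (0.909%), 36 higher (0.668%) and 13 lower (0.241%). The count of calls fell when either library of DGY1726 was left out and rose when either of DGY1735 was. A strain left with 1 library gives no spread of its own, so these counts turn on the spread of the other pair of cultures. In each of these fits all 97 log2 ratios kept their sign. In none of the 97 genes did the libraries of the strains overlap, so the sign could hardly turn. The median log2 ratio of all tested genes was 0.00, and the middle 50% of them lay between -0.13 and 0.13.

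On chromosome XI the median RNA ratio differed between the segments set by the named limits of the CNVs. The 5 tested genes to the left of TOF2, from YKR005C to FOX2, had log2 ratios between -0.27 and 0.26, none of them called. From TOF2 to VPS51 (chromosome XI, 458924 to 478832) all 11 genes were higher in DGY1726, and the median log2 ratio was 1.61 (3.04-fold). Each library of one strain was also set against the mean of the other strain. The medians were then 1.61 and 1.65 for the DGY1726 cultures and 1.62 and 1.57 for the DGY1735 cultures (pooled SD of the library medians within strains, 0.03). A ratio of 3 copies to 1 would be 1.58 on this scale. All 11 genes were called, and 8 of them stayed called without either library of DGY1726.

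**Figure D1:**
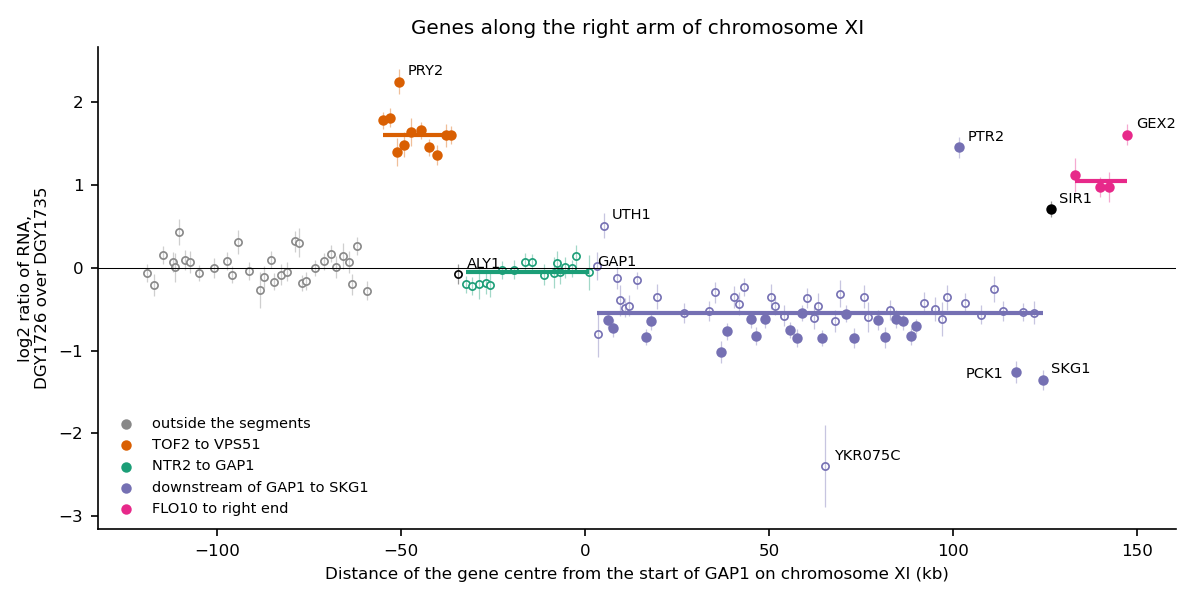
Log2 ratio of RNA of DGY1726 over DGY1735 (y axis) against the distance of the gene centre from the start of GAP1 on chromosome XI (x axis, kb), for tested genes of the right arm. Bars are SE, filled points are called genes, horizontal lines are segment medians and black points are the breakpoint genes. The medians step from 1.61 to -0.05 after ALY1, to -0.55 downstream of GAP1 and to 1.05 from FLO10 on.

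TOF2 encodes a nucleolar protein of rDNA silencing and stood at 310.0 and 321 CPM in DGY1726 and 89.0 and 94.4 CPM in DGY1735 (log2 ratio 1.78 ± 0.10, adjusted p = 2.47e-04). VPS51, a subunit of the GARP tethering complex at the Golgi, stood at 88.3 and 94.8 CPM in DGY1726 and 30.5 and 29.7 CPM in DGY1735 (log2 ratio 1.61 ± 0.11, adjusted p = 3.97e-04). PRY2, which encodes a secreted sterol-binding protein, had the highest ratio of the 11, with 63.0 and 77.8 CPM in DGY1726 and 15.5 and 14.2 CPM in DGY1735 (log2 ratio 2.25 ± 0.15, adjusted p = 3.97e-04). In each of the 11 genes both DGY1726 cultures stood above both DGY1735 cultures, and the strains were apart in every called gene. With 2 cultures per strain, genes that were not called can be apart too. NTR2, for example, had 205 and 224 CPM in DGY1726 and 246 and 248 CPM in DGY1735. The lowest ratio was 1.36, for YKR018C. No gene of the stretch was called when tested against the segment median instead of 0, with PRY2 at 0.65 ± 0.15, adjusted p = 0.13 and YKR018C at -0.24 ± 0.12, adjusted p = 0.405.

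The step down lay at ALY1 (chromosome XI, 479234 to 481981), which encodes an arrestin-related adaptor for the endocytosis of nutrient transporters. This breakpoint gene of DGY1735 had 372 and 431 CPM in DGY1726 and 405 and 442 CPM in DGY1735, values that overlapped between the strains (log2 ratio -0.08 ± 0.12, adjusted p = 0.798). From NTR2 to GAP1 (482171 to 516871) none of the 17 tested genes was called by edgeR or by DESeq2, 0 of them had an unadjusted p under 0.05, 5 ratios were positive and 12 negative, and the median was -0.05 (1.04-fold). The library medians were -0.01 and -0.09 for the DGY1726 cultures and 0.00 and -0.06 for the DGY1735 cultures (SD 0.05), and equal copy numbers would give 0. All 17 ratios lay between -0.22, for YKR023W, and 0.14, for KAE1, a subunit of the KEOPS complex of tRNA modification.

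GAP1 itself (chromosome XI, 515063 to 516871) had 11141 and 11729 CPM in DGY1726 and 9845 and 13891 CPM in DGY1735, so that the DGY1735 cultures spanned both values of DGY1726 (log2 ratio -0.05 ± 0.21, adjusted p = 0.932). GAP1 took between 0.970% and 1.41% of the protein-coding counts of the 4 libraries. DAL80, the GATA repressor of nitrogen catabolite genes, lies on the same stretch and stood at 956 and 912 CPM in DGY1726 and 775 and 1022 CPM in DGY1735 (log2 ratio 0.06 ± 0.15, adjusted p = 0.896). Here too the groups overlapped. The deviations from the segment median with the smallest p were those of NTR2, YKR023W, KAE1 and GMH1, none of them called, between -0.17 ± 0.11, adjusted p = 0.542 for YKR023W and 0.19 ± 0.14, adjusted p = 0.558 for KAE1.

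Most genes downstream of GAP1 had ratios below 0, although the first after it did not all do so. YKR040C was at 0.02 and YKR041W at -0.80, neither called, UTH1 was at 0.51, and the first called gene was the next, SHB17, at -0.63. From YKR040C to SKG1 (518063 to 639968) 58 of 61 tested genes had negative ratios, the median was -0.55 (1.46-fold lower in DGY1726), and 50% of the genes lay between -0.71 and -0.39. The medians of the libraries were -0.56 and -0.56 for the DGY1726 cultures and -0.54 and -0.54 for the DGY1735 cultures (SD 0.00247). They lay closer together than in any other segment, but this segment also held the most tested genes. The SD rests on 2 cultures per strain. A ratio of 2 copies to 3 would be -0.58. Singly, 23 genes were called lower and 1 higher. Without replicate 1 of DGY1726 the called genes were 1, without its replicate 2 they were 3, and without replicate 1 or 2 of DGY1735 they were 35 and 36, whereas the median stayed between -0.57 and -0.54 in these fits.

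Among the 23 lower genes, RPS21A, a protein of the small ribosomal subunit, had 555 and 529 CPM in DGY1726 and 1195 and 997 CPM in DGY1735 (log2 ratio -1.02 ± 0.13, adjusted p = 0.00908). MET1, an enzyme of siroheme synthesis in sulfate assimilation, had 454 and 454 CPM in DGY1726 and 819 and 814 CPM in DGY1735 (log2 ratio -0.85 ± 0.11, adjusted p = 0.00854). GLG1, the glycogenin that primes glycogen synthesis, had 129 and 119 CPM in DGY1726 and 203 and 218 CPM in DGY1735 (log2 ratio -0.77 ± 0.10, adjusted p = 0.0102). For each of these the lower DGY1735 culture stood above the higher DGY1726 culture, and the strains were likewise apart in every called gene. BAS1, a transcription factor of purine and histidine synthesis, had a ratio of the same order but was not called, with 401 and 342 CPM in DGY1726 and 589 and 493 CPM in DGY1735 (log2 ratio -0.54 ± 0.14, adjusted p = 0.115).

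PTR2, the permease of di- and tripeptides, went against its neighbours. It had 56.7 and 59.1 CPM in DGY1726 and 20.2 and 21.9 CPM in DGY1735, which put both DGY1726 cultures above those of DGY1735 (log2 ratio 1.46 ± 0.13, adjusted p = 0.00127). Against the segment median its ratio was 2.00 ± 0.13, adjusted p = 6.63e-04. UTH1, a wall protein of the SUN family, was also above the median of its stretch, with 516 and 624 CPM in DGY1726 and 446 and 354 CPM in DGY1735 (log2 ratio 0.51 ± 0.15, adjusted p = 0.184, and 1.06 ± 0.15, adjusted p = 0.0296 against the median). SKG1, the last gene before SIR1, was below it, with 115 and 137 CPM in DGY1726 and 305 and 337 CPM in DGY1735 (log2 ratio -1.35 ± 0.12, adjusted p = 0.0015, and -0.80 ± 0.12, adjusted p = 0.0339 against the median). The study treats SKG1 as probably disrupted by the breakpoint in DGY1735, where its RNA was the higher.

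These 3 genes were the ones called against their median on the segments of chromosomes V and XI. The same test called 33 of the 5492 genes (0.601%). Without replicate 1 of DGY1726 PTR2 alone of them kept this call (adjusted p = 0.0361), and without replicate 2 none of the 3 did (adjusted p = 0.0551 for PTR2). PCK1, the phosphoenolpyruvate carboxykinase of gluconeogenesis, was the fourth by p, with 149 and 191 CPM in DGY1726 and 403 and 411 CPM in DGY1735 (log2 ratio -1.26 ± 0.14, adjusted p = 0.00405, and -0.71 ± 0.13, adjusted p = 0.0866 against the median). YKR075C had the most negative ratio but also cultures that differed from each other, with 47.5 and 71.8 CPM in DGY1726 and 484 and 145 CPM in DGY1735 (log2 ratio -2.40 ± 0.50, adjusted p = 0.0714).

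At the far limit SIR1 (chromosome XI, 640540 to 642504), a protein of silencing at the mating-type loci and a breakpoint gene of DGY1735, was higher in DGY1726, with 164 and 173 CPM in DGY1726 and 105 and 101 CPM in DGY1735 (log2 ratio 0.71 ± 0.10, adjusted p = 0.0129). From FLO10 to the right end (646356 to 663289) all 4 tested genes were called higher, with a median of 1.05 (2.07-fold) and library medians of 1.01 and 1.18 for the DGY1726 cultures and 1.18 and 0.91 for the DGY1735 cultures (SD 0.16). A ratio of 2 copies to 1 would be 1. FLO10, a flocculin of the cell surface, had 38.2 and 56.5 CPM in DGY1726 and 19.8 and 23.5 CPM in DGY1735 (log2 ratio 1.12 ± 0.21, adjusted p = 0.0426). NFT1, a putative transporter of the ABC family, had 134 and 132 CPM in DGY1726 and 60.9 and 74.1 CPM in DGY1735 (log2 ratio 0.98 ± 0.12, adjusted p = 0.00821), and YKR104W next to it had a log2 ratio of 0.98. Only GEX2 of the 4 stayed called in both fits without a DGY1726 library, and with RLE size factors FLO10 and YKR104W missed the threshold (adjusted p = 0.0573 and 0.0512).

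GEX2 encodes an exporter of glutathione and has a close copy, GEX1, near the end of chromosome III. GEX2 stood at 64.4 and 62.5 CPM in DGY1726 and 21.9 and 19.7 CPM in DGY1735 (log2 ratio 1.61 ± 0.13, adjusted p = 8.01e-04), and GEX1 at 42.8 and 40.3 CPM in DGY1726 and 15.5 and 13.0 CPM in DGY1735 (log2 ratio 1.55 ± 0.15, adjusted p = 0.00258). GEX1 lies on no segment. Of the stretches of 50 bases in either gene, 60.2% recur elsewhere in the genome, so reads of one can be counted for the other and the split between them is uncertain. Their sum was 107 and 103 CPM in DGY1726 and 37.4 and 32.7 CPM in DGY1735.

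On chromosome V a second step lay from SAK1 to YER137C. The 6 tested genes between them were all called higher in DGY1726, with a median log2 ratio of 1.64 (3.12-fold) and library medians of 1.70 and 1.63 for the DGY1726 cultures and 1.71 and 1.61 for the DGY1735 cultures (SD 0.06). The neighbours on both sides, VFA1 at 0.23 and RTR1 at -0.05, were not called. Elsewhere on chromosome V 244 genes were tested and 2 called (0.820%), one in each direction.

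COM2, a zinc-finger transcription factor, had 309 and 331 CPM in DGY1726 and 77.4 and 89.1 CPM in DGY1735 (log2 ratio 1.94 ± 0.11, adjusted p = 2.47e-04). PMD1, a kelch-repeat protein, had 496 and 554 CPM in DGY1726 and 148 and 139.9 CPM in DGY1735 (log2 ratio 1.87 ± 0.11, adjusted p = 2.47e-04). Neither was called against the segment median, nor were RPS26B, a ribosomal protein, at 1.62 and YER134C at 1.67. GLC7, the essential catalytic subunit of type 1 protein phosphatase, had the smallest ratio, with 841 and 1021 CPM in DGY1726 and 484 and 459 CPM in DGY1735 (log2 ratio 0.98 ± 0.13, adjusted p = 0.0103). Against the median of the stretch its difference of -0.66 ± 0.13, adjusted p = 0.0942 was not called. Without either DGY1726 library GLC7 was not called against 0.

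The breakpoint genes of chromosome V were both higher. SAK1, a kinase that activates Snf1, had 480.4 and 446 CPM in DGY1726 and 191 and 193 CPM in DGY1735 (log2 ratio 1.27 ± 0.11, adjusted p = 0.00107). YER137C (chromosome V, 441373 to 441819), a gene of unknown role at the other limit, had the largest ratio of all tested genes, with 112 and 109 CPM in DGY1726 and 9.12 and 6.13 CPM in DGY1735 (log2 ratio 3.88 ± 0.17, adjusted p = 7.31e-05). Its 2 strains stood more than 10-fold apart, beyond the ratio of every gene inside the stretch. As the study describes the RNA of SAK1 and YER137C as disrupted in DGY1726, their ratios need not be those of intact genes.

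**Figure D2:**
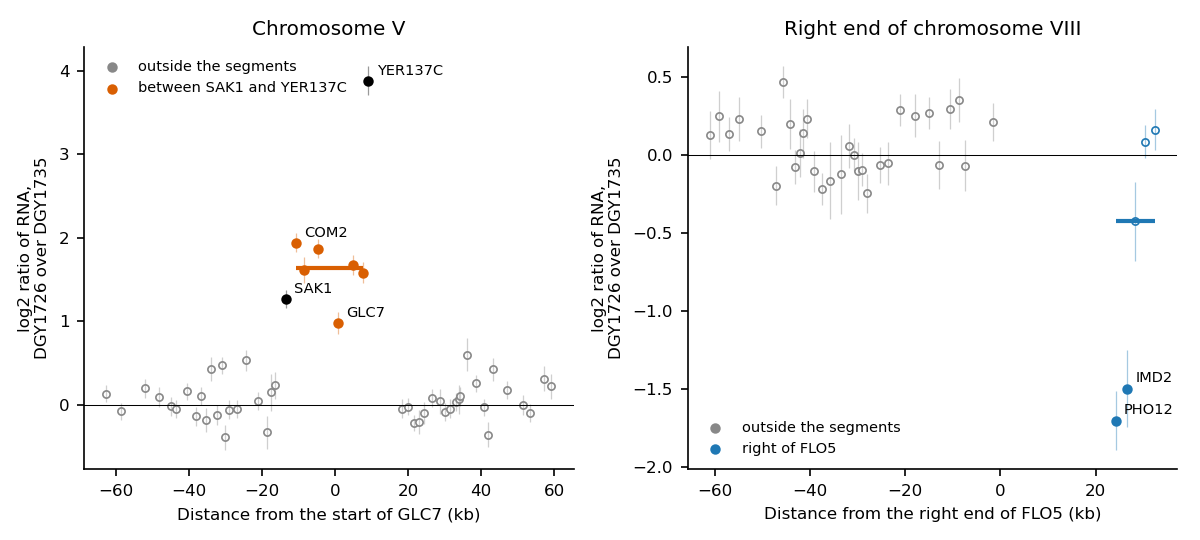
Log2 ratio of RNA of DGY1726 over DGY1735 (y axes) against the distance in kb from the start of GLC7 on chromosome V (left) and from the right end of FLO5 on chromosome VIII (right). Bars are SE, filled points are called genes, horizontal lines are segment medians and black points are breakpoint genes. On chromosome V the genes between SAK1 and YER137C lie around 1.64 and YER137C at 3.88, and on chromosome VIII PHO12 and IMD2 lie at -1.70 and -1.50.

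At the right end of chromosome VIII, which the translocation of DGY1726 replaced by the account of the study, only 5 of 16 genes passed the count minimum. PHO12, a secreted acid phosphatase, was lower in DGY1726 with 43.1 and 27.6 CPM in DGY1726 and 114 and 117 CPM in DGY1735 (log2 ratio -1.70 ± 0.19, adjusted p = 0.0047). IMD2, an IMP dehydrogenase of guanine nucleotide synthesis, was lower with 51.0 and 36.6 CPM in DGY1726 and 155 and 94.4 CPM in DGY1735 (log2 ratio -1.50 ± 0.24, adjusted p = 0.0256). In neither gene did the strains overlap, but neither fell to 0 in DGY1726. Of the stretches of 50 bases, 87.2% of those in PHO12 and 33.7% of those in IMD2 recur elsewhere in the genome, so that reads of their copies can be counted here. YHR217C was at -0.42, YHR218W at 0.09 and YHR219W at 0.16, all not called, and the 2 last consist wholly of repeated stretches. The median of the 5 genes was -0.42.

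PHO11, the near-identical copy of PHO12 at the end of chromosome I, was also called lower, with 48.3 and 32.4 CPM in DGY1726 and 109.9 and 115 CPM in DGY1735 (log2 ratio -1.47 ± 0.18, adjusted p = 0.00678). In PHO11 88.3% of the stretches recur. The sum of both was 91.4 and 60.0 CPM in DGY1726 and 224 and 232 CPM in DGY1735, a log2 ratio of -1.59, and the part of each gene in it cannot be told apart. Of 24 tested genes of the phosphate response, PHO11 and PHO12 were called lower, SPL2 was called higher, and 18 ratios were positive, with PHO84, the high-affinity phosphate transporter, at 0.73 (adjusted p = 0.202). SPL2, which restrains low-affinity phosphate uptake, had 40.5 and 33.8 CPM in DGY1726 and 19.6 and 18.6 CPM in DGY1735 (log2 ratio 0.97 ± 0.15, adjusted p = 0.0223).

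Outside all segments 47 genes were called, 36 higher and 11 lower in DGY1726. In none of them did the libraries of the strains overlap. Genes chosen by p in the same libraries tend to be so, and this adds no support. HO, the endonuclease that starts mating-type switching, was lower by the largest ratio. It had 8.98 and 10.3 CPM in DGY1726 and 82.4 and 90.3 CPM in DGY1735 (log2 ratio -3.16 ± 0.14, adjusted p = 7.31e-05), and it stayed called in every alternative fit. RIM4, an RNA-binding repressor of translation in meiosis, was called in every alternative too, with 66.6 and 82.3 CPM in DGY1726 and 26.8 and 29.6 CPM in DGY1735 (log2 ratio 1.39 ± 0.14, adjusted p = 0.00323). With PHO11 and PHO12 these were the 4 genes outside the segments of chromosomes V and XI that passed the threshold in each fit without 1 library. The other called genes outside the segments were not called without replicate 2 of DGY1726.

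**Figure D3:**
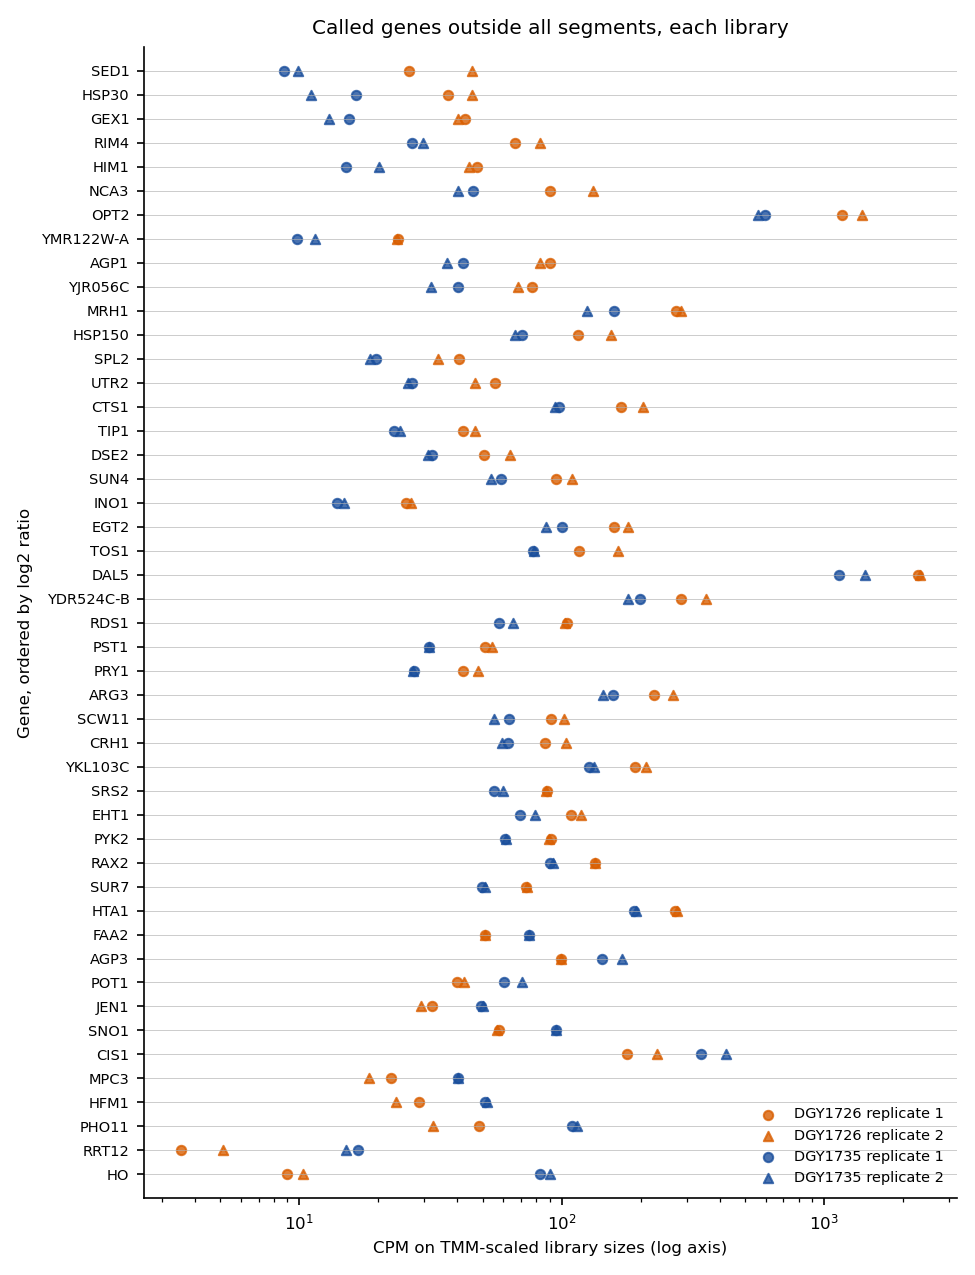
CPM on TMM-scaled library sizes (x axis, log scale) of the 47 called genes outside all segments (rows, ordered by log2 ratio), with DGY1726 in orange and DGY1735 in blue, replicate 1 as circles and replicate 2 as triangles. In every row the colours are apart, which the choice of rows by p in the same libraries favours. HO has the widest gap, with about 10 CPM in DGY1726 and over 80 CPM in DGY1735.

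The list with the most calls was that of the cell wall, the layer of glucan, mannoprotein and chitin around the yeast cell. Of 30 tested genes of the wall protein list outside the segments, 9 were called higher and none lower (30.0%), and all 30 ratios were positive with a median of 0.65, where the median of all genes was 0.00. SED1, an abundant glycoprotein of the wall, had 26.3 and 45.7 CPM in DGY1726 and 8.79 and 9.91 CPM in DGY1735 (log2 ratio 1.93 ± 0.27, adjusted p = 0.0134). NCA3, of the SUN family, had 90.2 and 131 CPM in DGY1726 and 45.8 and 40.3 CPM in DGY1735 (log2 ratio 1.37 ± 0.18, adjusted p = 0.0103). HSP150, a PIR protein linked to glucan, had 116 and 154 CPM in DGY1726 and 70.8 and 66.3 CPM in DGY1735 (log2 ratio 0.98 ± 0.15, adjusted p = 0.0181). In all 3 genes replicate 2 of DGY1726 was the highest library and replicate 1 still stood above both DGY1735 cultures. TIP1, a mannoprotein, had 41.9 and 46.8 CPM in DGY1726 and 22.9 and 24.1 CPM in DGY1735 (log2 ratio 0.91 ± 0.13, adjusted p = 0.0151).

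The other called wall genes were SUN4 at 0.86, TOS1 at 0.84, PST1 at 0.75, SCW11 at 0.70 and CRH1 at 0.65, with adjusted p between 0.0112 and 0.04998 (CRH1). With RLE size factors TOS1 (adjusted p = 0.0666) and CRH1 (0.0646) missed the threshold. Not called were, for example, CCW12 at 0.42 (adjusted p = 0.13), PIR1 at 0.84 (adjusted p = 0.059) and SIM1, another SUN family member, at 0.70 (adjusted p = 0.0732). The size of the wall ratios depended on the DGY1726 library that was left out. Without replicate 2 of DGY1726 no wall gene was called, 27 of 30 ratios were positive and the median was 0.52, and without replicate 1 the called genes were 3 and the median 0.82. Among the wall genes on the segments, PRY2 (2.25) and FLO10 (1.12) were called higher and UTH1 (0.51) was not.

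Daughter-cell separation needs enzymes that dissolve the septum between mother and bud, and Swi5 is a transcription factor that switches on genes of this group as cells leave mitosis. In the list of 19 such genes with HO, 4 were called higher and HO lower (5 of 19, 26.3%), and the 18 ratios other than that of HO were all positive, with a list median of 0.53. CTS1, the chitinase of the septum, had 169 and 204 CPM in DGY1726 and 97.7 and 94.5 CPM in DGY1735 (log2 ratio 0.96 ± 0.12, adjusted p = 0.00848). DSE2, expressed in daughter cells, had 50.5 and 63.8 CPM in DGY1726 and 32.03 and 30.8 CPM in DGY1735 (log2 ratio 0.86 ± 0.15, adjusted p = 0.03). EGT2, a wall protein of the same step, had 158 and 179 CPM in DGY1726 and 100.2 and 87.1 CPM in DGY1735 (log2 ratio 0.85 ± 0.12, adjusted p = 0.0133). SCW11, a glucanase-like wall protein found in both lists, had 91.0 and 102 CPM in DGY1726 and 63.1 and 55.4 CPM in DGY1735 (log2 ratio 0.70 ± 0.12, adjusted p = 0.0295). In each of these the cultures of a strain lay close together and the strains apart.

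Not called were SWI5 at 0.57 (adjusted p = 0.124) and ASH1, which encodes the repressor of HO in daughter cells, at 0.56 (adjusted p = 0.0913). SSD1, an RNA-binding protein that binds the transcripts of many wall genes, had 408 and 558 CPM in DGY1726 and 404 and 443 CPM in DGY1735, with overlapping strains (log2 ratio 0.19 ± 0.16, adjusted p = 0.608). Of 13 cyclin genes and cell-cycle inhibitors none was called by edgeR or DESeq2 (5 at an unadjusted p under 0.05), and 12 ratios were positive with a median of 0.27. Of 10 histone genes HTA1 was called (0.52, adjusted p = 0.0435), and all 10 ratios were positive with a median of 0.21. In bulk RNA a larger share of cells at one stage of the cycle and more RNA per cell cannot be told apart. Without replicate 1 or without replicate 2 of DGY1726 no gene of the separation list but HO was called.

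Among genes of nitrogen use a few transporters were called. Nitrogen catabolite repression silences genes for poor nitrogen sources through GATA factors while a good source is plentiful. Of 41 tested genes under it outside the segments, 3 were called higher and none lower (7.32%), 22 ratios were positive and 19 negative, and the median was 0.06. OPT2, an oligopeptide transporter, had 1167 and 1398 CPM in DGY1726 and 598 and 561 CPM in DGY1735 (log2 ratio 1.15 ± 0.13, adjusted p = 0.00615). AGP1, a broad amino acid permease of low affinity, had 90.3 and 82.6 CPM in DGY1726 and 42.1 and 36.7 CPM in DGY1735 (log2 ratio 1.14 ± 0.12, adjusted p = 0.00363). DAL5, the permease of allantoate that also takes up dipeptides, had 2278 and 2320.0 CPM in DGY1726 and 1139 and 1437 CPM in DGY1735 (log2 ratio 0.84 ± 0.15, adjusted p = 0.037). Each was higher in both DGY1726 cultures, and PTR2, on chromosome XI, moved the same way. None of the 3 was called without either library of DGY1726. The list also moved with the libraries of DGY1735. Without its replicate 1 the median was -0.10, and GDH1, GDH3 and DAL7 were called lower beside the 3 higher genes. Without its replicate 2 the median was 0.17, and DUR3, DIP5 and CPS1 joined the 3 higher genes.

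Among the other permeases AGP3 was called lower, with 99.1 and 99.6 CPM in DGY1726 and 142 and 169.7 CPM in DGY1735 (log2 ratio -0.65 ± 0.12, adjusted p = 0.037). Of the 21 amino acid and peptide permeases outside the segments 9 had positive and 12 negative ratios, with a median of -0.09. MEP2, the ammonium permease, was at -0.17 (adjusted p = 0.67), and PUT4, the proline permease, at -0.09 (adjusted p = 0.776). Both had overlapping cultures.

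The GATA core GATAAG, searched on both strands in the 500 bases before the start codon (build R64), was found before 22.6% of the 6567 genes, with a pair or more before 3.50%. All 3 called transporters held at least a pair of matches in the 500 bases. One window of each is shown with the core in capitals on the strand of the gene, at chromosome XVI, 927222 to 927251 (OPT2, minus strand), chromosome III, 78155 to 78184 (AGP1, minus strand), and chromosome X, 719261 to 719290 (DAL5, plus strand).
OPT2, 302 bases before the start codon: attagcaatgaaGATAAGtaacattaaaaa
AGP1, 253 bases before the start codon: caaatcaatcctGATAAGacggctaagatg
DAL5, 393 bases before the start codon: ctatcatttgctGATAAGgtgctacagcgc
The core also stood before 6 of the 13 called wall and separation genes that were read, none of them HO. Of the 36 genes called higher outside all segments, 38.9% held at least 1 match and 13.9% at least 2. For the 11 called lower these shares were 27.3% and 0%. The genes were chosen for their calls, so these counts describe them and were not tested. The 3 transporters also come from a list defined by control through GATA factors, so matches before them were to be foreseen. A match gives the letters alone, and binding was not measured.

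**Figure D4:**
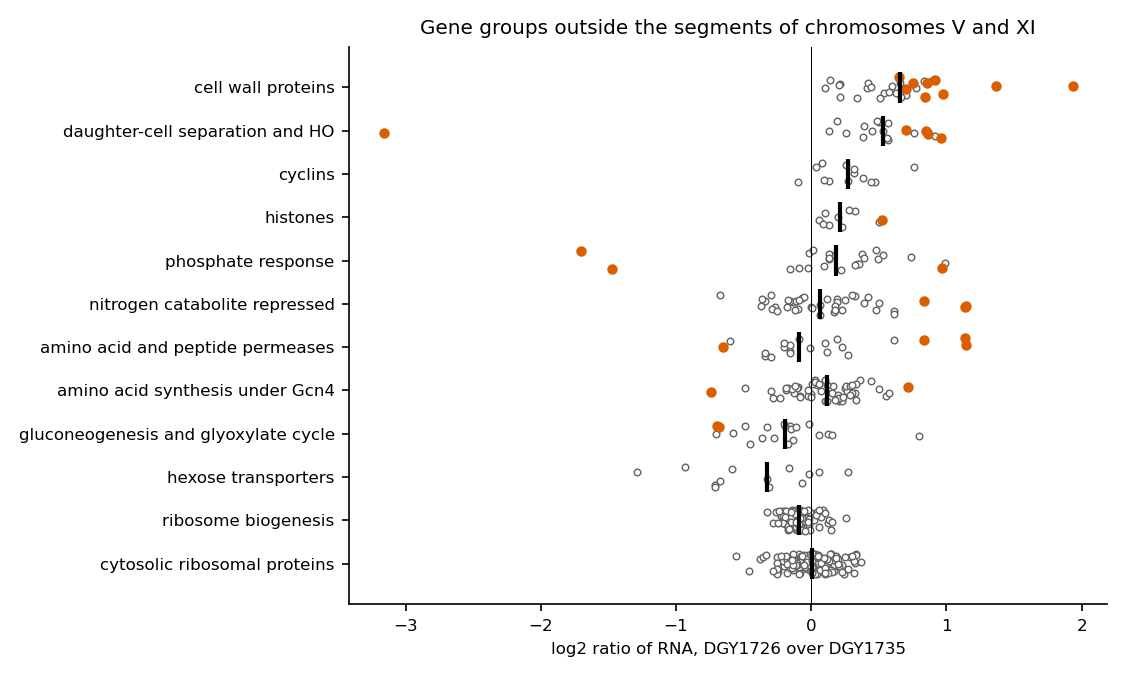
Log2 ratio of RNA of DGY1726 over DGY1735 (x axis) for the genes of 12 groups outside the segments of chromosomes V and XI (rows). Each point is a gene, filled points are called, vertical bars are medians and the height within a row is scatter for display. The wall protein genes all lie to the right of 0 with a median of 0.65, and HO stands at -3.16, far from the rest of its list.

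Further called genes fell in no single group, and UTR2 among them acts on the wall but was not on the wall protein list. Higher in DGY1726 were HSP30, a stress protein of the plasma membrane, with 36.8 and 45.6 CPM in DGY1726 and 16.5 and 11.1 CPM in DGY1735 (log2 ratio 1.60 ± 0.21, adjusted p = 0.0102), and MRH1, its relative in the same membrane, with 272 and 286 CPM in DGY1726 and 158 and 125 CPM in DGY1735 (log2 ratio 0.98 ± 0.13, adjusted p = 0.0102). HSP30 was the only one of 42 heat shock and general stress genes that was called, and the median of that list was 0.10, which ran from -0.00032 without replicate 2 of DGY1726 to 0.23 without replicate 2 of DGY1735 when 1 library was left out, with the call lost without either DGY1726 library. HIM1, named for a role in mutagenesis, was at 1.37 (adjusted p = 0.00711), and UTR2, a transglycosylase of chitin and glucan on chromosome V outside the amplified stretch, at 0.96 (adjusted p = 0.0136). YMR122W-A was at 1.15 and YJR056C at 1.02. ARG3, the ornithine carbamoyltransferase of arginine synthesis, was at 0.71 (adjusted p = 0.0276), and PYK2, the minor pyruvate kinase, at 0.56 (adjusted p = 0.037). The remaining higher genes had log2 ratios between 0.54, for SUR7 of the eisosome, and 0.85, for INO1 of inositol synthesis.

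Among the 11 lower genes were some of carbon use. JEN1, the lactate and pyruvate permease, lies on the left arm of chromosome XI and had 31.98 and 29.2 CPM in DGY1726 and 49.3 and 50.2 CPM in DGY1735 (log2 ratio -0.70 ± 0.12, adjusted p = 0.0361). POT1, the thiolase of peroxisomal beta-oxidation, had 39.9 and 42.3 CPM in DGY1726 and 60.5 and 70.8 CPM in DGY1735 (log2 ratio -0.68 ± 0.12, adjusted p = 0.041). FAA2, which activates fatty acids at the peroxisome and lies on chromosome V, had 51.0 and 51.1 CPM in DGY1726 and 75.3 and 74.9 CPM in DGY1735 (log2 ratio -0.56 ± 0.10, adjusted p = 0.0418). MPC3, a subunit of the mitochondrial pyruvate carrier, had 22.3 and 18.5 CPM in DGY1726 and 40.4 and 40.3 CPM in DGY1735 (log2 ratio -0.98 ± 0.15, adjusted p = 0.0169). In each gene both DGY1726 cultures were below both DGY1735 cultures, and the strains were likewise apart in every called gene. Of 21 genes of gluconeogenesis and the glyoxylate cycle outside the segments only JEN1 and POT1 were called lower (9.52%), 17 ratios were negative and the median was -0.19. Neither gene was called without either library of DGY1726, and the median was then -0.10 without replicate 1 and -0.35 without replicate 2. Without replicate 2 of DGY1735 no gene of the list was called lower, CIT2 was called higher, and the median was -0.15, and without its replicate 1 the median was -0.29 and DAL7 was also called lower.

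The other lower genes were HFM1, a DNA helicase of meiotic crossing over, at -0.98 (adjusted p = 0.0134), RRT12, needed for the spore wall, at -1.88 (adjusted p = 0.00711), SNO1, of pyridoxine metabolism, at -0.74 (adjusted p = 0.0106), and CIS1 at -0.90 (adjusted p = 0.0361). RRT12 rested on few counts, with 3.54 and 5.13 CPM in DGY1726 and 16.8 and 15.02 CPM in DGY1735. Of 8 early meiotic genes tested, RIM4 was called higher and no other gene was called.

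In several large groups edgeR called no gene. Of 135 cytosolic ribosomal protein genes outside the segments none was called, 9 had an unadjusted p under 0.05, DESeq2 called 2, and the median was 0.01. Of 78 ribosome biogenesis genes none was called by either tool and 0 had an unadjusted p under 0.05, with 64 negative ratios and a median of -0.09. None of 67 mitochondrial ribosomal protein genes and none of 41 nuclear genes of the respiratory chain and ATP synthase was called by either tool, with 2 and 4 at an unadjusted p under 0.05 and medians of -0.05 and -0.06. The 13 genes of hexose transport and its sensors had a median of -0.32, and edgeR called none, against 8 at an unadjusted p under 0.05 and 3 calls of DESeq2. Without replicate 2 of DGY1735 edgeR called 6 of them lower, HXT2, HXT3, HXT4, HXT6, HXT7 and MTH1. Some medians of the other groups turned sign when 1 library of DGY1726 was left out. Without replicate 1 of DGY1726 the median was -0.025 for cytosolic ribosomal proteins and 0.0060 for the respiratory chain. Without replicate 2 of DGY1726 it was 0.037 for ribosome biogenesis. The medians of the other groups also turned sign when 1 library of DGY1735 was left out, except that of the mitochondrial ribosomal proteins. Without its replicate 1 and its replicate 2 they were 0.17 and -0.30 for ribosome biogenesis (NSA2 called lower in the second), 0.12 and -0.11 for cytosolic ribosomal proteins (RPL4A and RPL4B called higher in the first, RPL41A, RPL41B and RPL43B lower in the second) and -0.14 and 0.03 for the respiratory chain (QCR7 called lower in the first). HXT2, a glucose transporter of high affinity, had 59.2 and 57.6 CPM in DGY1726 and 221 and 66.7 CPM in DGY1735, so that 1 culture of DGY1735 stood apart from the other 3 libraries (log2 ratio -1.29 ± 0.45, adjusted p = 0.247). In this culture HAP4, an activator of respiratory genes, stood apart in the same way, with 70.4 and 81.4 CPM in DGY1726 and 178 and 68.9 CPM in DGY1735 (log2 ratio -0.69 ± 0.36, adjusted p = 0.424).

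Between the 2 cultures of one strain 16 tested genes differed by at least 2-fold in DGY1735 and 3 in DGY1726. The strains were the main axis of the 4 libraries: DGY1726 and DGY1735 were separated along the first principal component, with 59.5% of the variance, and the second, with 25.9%, parted replicate 1 from replicate 2 in both strains. Across tested genes, Spearman's correlation was 0.989 between the DGY1726 cultures and 0.988 between the DGY1735 cultures, and 0.975 to 0.982 between cultures of different strains.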

How the data were processed

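RNA-seq of 4 libraries, with 2 cultures per strain, was used. Groups and replicate numbers come from the titles. The deposited values were raw read counts per annotated feature (Ensembl R64-1-1, build R64), which the authors made from trimmed single reads with cutadapt, STAR and strand-specific overlaps in bedtools. A read over several features is counted in each, and the treatment of reads with several alignments is not given in the sources used here. The labels call the RNA polyadenylated, whereas the methods state no such selection.

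Of the protein-coding gene rows, those averaging 100 counts or more per library were kept, except the row of a retrotransposon. TMM scaling and the quasi-likelihood test of edgeR (version 4.0.16, R 4.3.3) were used, and p-values were Benjamini-Hochberg adjusted over all 5492 genes and called at 0.05. The study tested strains in pairs with DESeq2, which is an alternative here (version 1.42.0). Values printed as x ± y are a log2 ratio and its SE (from the F statistic). A gene was tested against its segment median by adding the median as an offset. CPM use TMM-scaled library sizes, except those of mating-type genes. Cultures of a strain differed beyond counting error (chi-square per degree of freedom 19.1 in DGY1726 and 26.3 in DGY1735). The edgeR test draws the variance of each gene towards a trend over all tested genes. The p-values and SE thus rest on spread shared across genes, besides that between 2 cultures per strain. The share of repeated stretches of 50 bases was counted in the RefSeq genome of the same build, whose 17 sequence lengths equal those of the deposited tables. Upstream bases come from that genome.

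Genes named are GAP1, DAL80, SSD1, UTH1, the breakpoint genes, every tested gene of the shorter segments except 1 not reported here, the 4 with the smallest p off the median in each longer one, up to 15 called genes in each direction outside the segments, and up to 4 called members of each list and direction. Further genes were named after their values were seen. Segments, members and lists were chosen with earlier results of these data known. Alternatives were other scalings, filters, feature rows, fits and thresholds, and leaving out each library.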

Additional observations from a re-analysis of the deposited data

How the results depend on the processing

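Each strain had 2 cultures, which differed beyond counting error, and the effect of depth on the calls was not tested. The 97 called genes kept the sign of their log2 ratio in every alternative fit. Since the strains overlapped in none of them, leaving out 1 library could hardly turn it. Counts moved by more than segment medians. DESeq2 called 191 genes, 130 of them outside the segments of chromosomes V and XI (90 higher, 40 lower in DGY1726). A fit with all 8 libraries called 81 genes outside them (58 higher, 23 lower) and gave a median of -0.54 downstream of GAP1. At an adjusted p under 0.01, 40 genes differed, 10 of them outside the segments, and 1 was off its segment median. The mean in place of the median was 1.64 from TOF2 to VPS51, and filterByExpr gave -0.98 to the right of FLO5. With the replicate number as a replicate block, 256 genes were called, 191 of them outside (128 higher, 63 lower), and 6 were off their segment median. The labels do not say that a number marks a shared batch, and deviations of equal numbers correlated at 0.28 across genes, so the block is given here alone since 2 numbers are too few to show a pairing.

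Without 1 library the called genes ranged from 23 to 177, those outside from 4 to 119 (1 to 75 higher, 3 to 44 lower), and those off their segment median from 0 to 8. Where this leaves 1 library in a strain, it is assumed to vary like the other strain. Segment medians ranged from 1.61 to 1.67 (TOF2 to VPS51), -0.074 to 0.0070 (NTR2 to GAP1, whose sign turned without replicate 2 of DGY1735), -0.57 to -0.54 (downstream of GAP1), 0.93 to 1.21 (FLO10 to the right end), 1.62 to 1.72 (between SAK1 and YER137C) and -0.77 to -0.11 (right of FLO5). Of 56 called genes chosen by the naming rule, 41 lost the call without at least 1 library. With RLE size factors FLO10 (adjusted p = 0.0573), YKR104W (0.0512), TOS1 (0.0666), CRH1 (0.0646) and SUR7 (0.0528), with TMM scaling computed without the segment genes TOS1 (0.0505), CRH1 (0.0507) and SUR7 (0.0507), and with all 8 libraries POT1 (0.0515) and ARG3 (0.11), missed the threshold. The cause of these changes was not tested.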

Other observations

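Within the strains, a few genes differed between cultures by more than most differed between strains. In DGY1735 replicate 1 stood above replicate 2 in RCK1 (49.2 and 14.3 CPM), a protein kinase of the oxidative stress response, and in ECM13 (60.1 and 22.5 CPM), beside YKR075C, HXT2 and HAP4. Both DGY1726 cultures were close to the lower DGY1735 culture in RCK1, with 14.8 and 19.1 CPM. In DGY1726 CIT2, the peroxisomal citrate synthase and a target of the retrograde pathway, had 835 CPM in replicate 1 and 326 CPM in replicate 2, and DLD3 of the same pathway had 544 and 286 CPM. Both DGY1735 cultures lay near the lower value of CIT2, at 262 and 405 CPM. None of these genes was called between the strains with all 4 libraries.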
